A study of Mus musculus with 9 samples.

Results

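The miR-34 and miR-449 family was followed through 3 cell populations of the embryonic mouse cortex. It was taken as the 6 mature miRNAs listed as mmu-miR-34a-5p, mmu-miR-34b-5p, mmu-miR-34c-5p, mmu-miR-449a-5p, mmu-miR-449b and mmu-miR-449c-5p (the prefix for mouse is left out from here on), out of 1052 database miRNAs in the count table. All 6 names had a single row each, so the use of the largest row per name decided nothing here. The family was chosen by measured values as well as by name: earlier results of these data were known, in which miR-449a-5p differed between neurons and proliferating progenitors and miR-449c-5p differed at both successive steps. The differences of these 2 miRNAs are therefore given as a description, without p-values.

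The cells came from the lateral cortex of C57BL/6 embryos at embryonic day 14.5 and were separated by sorting on the fluorescence of reporters expressed by the cells themselves, with 3 small RNA libraries per population. Proliferating progenitors showed neither the reporter R nor the reporter G. Differentiating progenitors showed R without G. Newborn neurons were sorted as G positive. The labels do not name the reporter genes. As known of the study, R is a red protein expressed from Btg2, a gene switched on in progenitors that will make neurons, and G a green protein expressed from Tubb3, a gene of young neurons. The populations therefore follow each other in the neurogenic lineage, and the proliferating population is a negative gate that takes in any cell with neither reporter. No label says whether the libraries of a population came from separate animals, so p-values measure the spread between these libraries, which may be technical. In bulk libraries fewer cells of a type and less of a miRNA per cell cannot be told apart.

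miRNAs are short RNAs that guide the Argonaute proteins to messenger RNAs, chiefly through the seed, bases 2 to 8 from the 5′ end, and lower the output of those messengers. The miR-34 genes are classical targets of the tumour suppressor p53 and restrain cell cycle entry. The miR-449 genes share the miR-34 seed, respond to E2F factors and are known, together with miR-34b and miR-34c, for their abundance in cells with many motile cilia, such as those of the airway, the oviduct and the choroid plexus. In the developing cortex, mice lacking these loci have been reported to show misoriented divisions of radial glia, the stem cells of the cortex.

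The sequences of the members show what they share and where they can be told apart. RefSeq (GRCm38.p6) gave the mature sequence of 4 of the 6 members and the hairpin precursor of 5. They are printed 5′ to 3′ with the seed in capitals. For Mir34c the whole hairpin is shown, with the same 7 letters in capitals. The mature miR-34c-5p and miR-449b and the hairpin of Mir449b are named only.
miR-34a-5p: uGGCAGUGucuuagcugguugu
miR-34b-5p: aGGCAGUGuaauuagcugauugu
miR-449a-5p: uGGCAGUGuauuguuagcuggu
miR-449c-5p: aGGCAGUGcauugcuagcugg
Mir34c hairpin: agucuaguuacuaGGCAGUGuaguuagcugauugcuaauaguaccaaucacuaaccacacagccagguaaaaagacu

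The seed GGCAGUG was identical in the 4 mature sequences, and these 4 were the only ones of 1679 mouse mature miRNAs in the same table with that seed. The members differ outside it. miR-449a-5p and miR-449c-5p, compared position by position from the 5′ end, differed at 3 of 21 positions, 1 of them the first base and 2 of them after the seed. miR-34a-5p differed from miR-449a-5p at 7 of 22 positions, all after the seed. How many mismatches the authors' counting allowed is not given in the sources used here, so it is not known how far reads of miR-449a-5p and miR-449c-5p could have been exchanged.

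The 6 members come from 3 places in the genome (GENCODE M21, GRCm38, the build named mm10 in the submitters' processing notes). Mir34a lies at chr4:150068454-150068555 on the plus strand and inside no other annotated gene. Mir34c (chr9:51103034-51103110) and Mir34b (chr9:51103562-51103645) lie 451 bp apart on the minus strand, within an intron of Btg4, which is annotated on the opposite strand. Mir449c (chr13:113035983-113036091), Mir449b (chr13:113037419-113037498) and Mir449a (chr13:113037534-113037624) lie within 1642 bp on the plus strand, in introns of Cdc20b, a gene of the same strand. Mir449b and Mir449a are separated by 35 bp.

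The libraries held 821155 to 3856484 miRNA counts in all. The smallest was a library of proliferating progenitors and the largest one of neurons. The family took 68 to 840 counts per library, which was 0.00793% to 0.0278% of the total, so counting error is large for most members. Levels are given as CPM, counts scaled to a library of 1000000 miRNA counts, with the library size adjusted by TMM factors (edgeR's correction for composition). A count of 3, the upper limit that a count of 0 allows, stood for 0.772 to 3.93 CPM depending on the library. These limits and the binomial intervals below describe counting error alone, and PCR copies of a molecule may have been counted as separate reads. Of 4 tested miRNAs on the neuronal list 3 were called higher in neurons than in proliferating progenitors and 1, miR-129-5p, was called lower (edgeR), beside 29.8% higher and 26.6% lower among all tested miRNAs. The neuronal miR-124-5p had 57.7 ± 22.9, 175 ± 77.1 and 435 ± 103 CPM (SD, n = 3 each) in proliferating progenitors, differentiating progenitors and neurons. The proliferating libraries also held miRNAs of other cells: the summed level of the erythroid list (2 of 3 miRNAs in the table, both with counts) was 260 to 354 CPM there and at most 2.86 CPM in the other populations, and the mural or mesenchymal list (5 of 5 in the table, 1 at 0) gave 437 to 579 CPM there, 40.0 to 43.4 CPM in differentiating progenitors and 17.7 to 36.3 CPM in neurons. Nearly all of the mural sum in the proliferating libraries was miR-143-3p, at 429, 559 and 565 CPM in replicates 1 to 3. The others on that list, miR-143-5p, miR-145a-5p, miR-199a-5p and miR-214-5p, had 2, 19, 45 and 0 counts over the 9 libraries and were not tested. The haematopoietic list (3 of 5 in the table) gave 24.9 to 32.7, 12.1 to 19.2 and 0.772 to 1.54 CPM in lineage order, and the endothelial list (1 of 2) 18.4 to 26.2, 11.4 to 12.3 and 5.28 to 12.3 CPM. The haematopoietic sum joins miRNAs that went opposite ways from proliferating to differentiating progenitors. The log2 change there was -4.03 for miR-142a-5p (edgeR adjusted p = 1.06e-05) and 1.08 for miR-146a-5p (edgeR adjusted p = 0.0966). miR-223-5p had 3 counts over the 9 libraries. Of the 5 tested miRNAs on the list for dividing progenitors 2 were called lower in neurons than in proliferating progenitors and none higher, beside the same shares of all tested miRNAs. The part of these cells in the family's levels was not tested.

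As a whole the family was higher at each stage, and the miR-449 cluster carried this difference. The summed level was 88.6 ± 8.76 CPM in proliferating progenitors, 170 ± 17.2 CPM in differentiating progenitors and 225 ± 8.11 CPM in newborn neurons (SD, n = 3 each). The 3 populations did not overlap, since the libraries ran from 79.6 to 97.1, from 152 to 187 and from 216 to 232 CPM. These sums contain the differences that were known when the family was chosen and are given without a test.

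The 3 loci contributed in changing proportions. The miR-34b and miR-34c locus gave 65.2 ± 9.40, 77.2 ± 6.13 and 72.0 ± 7.96 CPM in the 3 populations in lineage order (SD, n = 3 each), with overlapping libraries. The miR-449 cluster gave 18.2 ± 12.2, 87.6 ± 16.8 and 146 ± 4.15 CPM, with no overlap. miR-34a-5p gave 5.13 ± 0.992, 5.14 ± 0.955 and 7.14 ± 3.0 CPM. The locus of miR-34b and miR-34c thus supplied most family counts in proliferating progenitors, 63.2% to 85.3% in the 3 libraries. Its share was 39.6% to 49.4% in differentiating progenitors and 29.0% to 33.3% in neurons. The share of the miR-449 cluster went the other way, from 8.82% to 32.6% through 47.7% to 57.1% to 62.6% to 67.0%. In the library with the fewest family counts, replicate 3 of the proliferating progenitors, the cluster share of 8.82% had an exact 95% binomial interval from 3.31% to 18.2%. In the library with the most, replicate 1 of the neurons, the share of 67.0% had an interval from 63.7% to 70.2%. Shares within a library do not depend on how the libraries are scaled.

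**Figure D1:**
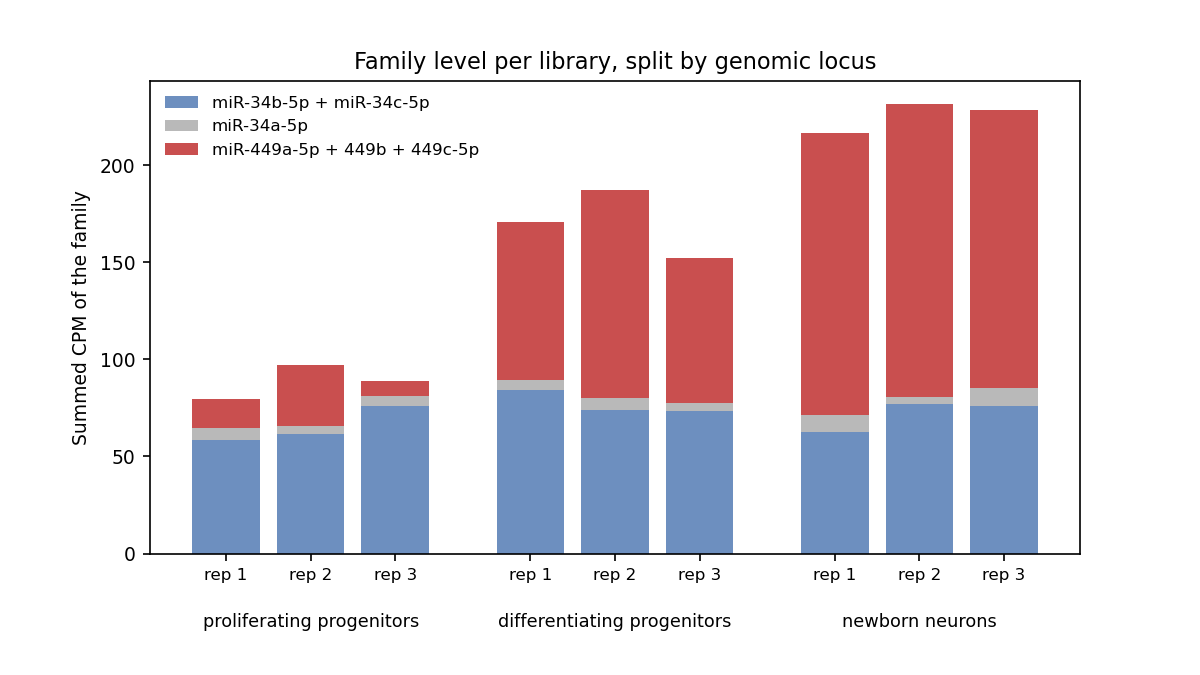
Summed CPM of the family in each of the 9 libraries (bars from 0), split by genomic locus. The part from miR-34b-5p and miR-34c-5p stays between 58.4 and 84.3 CPM, while the part from the miR-449 cluster is 7.85 to 31.7 CPM in proliferating progenitors, 74.8 to 107 CPM in differentiating progenitors and 143 to 151 CPM in neurons.

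Of the 6 members, 5 had at least 1 count and 3 passed the filter on low counts and entered the test among 188 miRNAs: miR-34c-5p, miR-449a-5p and miR-449c-5p. miR-449c-5p passed through the differentiating progenitor libraries alone, the population in which it was high, so a count over the members that passed supports nothing. From proliferating to differentiating progenitors 2 of these 3 were called higher and none lower (edgeR's quasi-likelihood test, Benjamini-Hochberg adjusted p under 0.05), beside 16.0% of all tested miRNAs called in either direction and 7.98% called higher. Without replicate 1 of the proliferating progenitors 1 member was called at this step. From differentiating progenitors to neurons 1 was called higher and 1 lower, beside 46.3% called in either direction, 23.9% higher and 22.3% lower. From proliferating progenitors to neurons 1 was called, higher, beside 56.4% called in either direction and 29.8% higher. Libraries that do not overlap are a further description: 2 of the 3 members were higher without overlap at the first step (32.4% of tested miRNAs in either direction, 13.8% higher, 18.6% lower). At the second step 1 was higher and 1 lower without overlap (49.5%, 27.1% and 22.3%), and over both steps 1 was higher (64.4%, 32.4% and 31.9%). Nothing is read from these counts, since they include the differences by which the family was chosen. For calls, 7.98% of tested miRNAs were lower at the first step and 26.6% over both. The 3 comparisons share libraries in pairs and are not independent of each other.

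miR-34c-5p, the main product of the chromosome 9 locus, was present at a similar level throughout. Its counts in replicates 1 to 3 were 68, 59 and 57 for proliferating progenitors, 110, 80 and 97 for differentiating progenitors and 229, 124 and 92 for neurons. Scaled, these were 51.6, 60.3 and 74.6 CPM, then 78.5, 70.5 and 69.1 CPM, then 58.9, 65.4 and 70.7 CPM. The populations overlapped in each comparison, and all 9 libraries lay within 51.6 to 78.5 CPM. The log2 change was 0.24 from proliferating to differentiating progenitors (SE 0.21, 95% confidence interval -0.20 to 0.69, edgeR adjusted p = 0.482). It was -0.17 from differentiating progenitors to neurons (SE 0.20, interval -0.59 to 0.26, edgeR adjusted p = 0.525) and 0.07 from proliferating progenitors to neurons (SE 0.21, interval -0.37 to 0.51, edgeR adjusted p = 0.775). No difference was called, and the intervals allow changes from 0.662-fold to 1.61-fold. Over all 188 tested miRNAs the median log2 changes were 0.08, -0.06 and -0.05 in these comparisons. Since miR-34c-5p was not among the miRNAs whose change led to the choice of the family, these are the tests of a tested member that the choice leaves free.

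miR-34b-5p, cut from the neighbouring hairpin of the same locus, was far less abundant. The counts were 9, 1 and 1 in the proliferating libraries, 8, 4 and 6 in the differentiating libraries and 15, 22 and 7 in the neuron libraries, or 6.82, 1.02 and 1.31 CPM, then 5.71, 3.52 and 4.27 CPM, then 3.86, 11.6 and 5.38 CPM. The populations overlapped. In the proliferating progenitors 2 of the 3 libraries held a single count each. For every count of miR-34c-5p a library held 0.0169 to 0.177 counts of miR-34b-5p, and the lowest and the next lowest ratio were those of replicates 2 and 3 of the proliferating progenitors. The log2 ratio of the pair did not differ detectably between populations (two-sided exact permutation tests, n = 3 each, p = 0.4 from proliferating to differentiating progenitors, 0.2 from there to neurons and 0.3 over both steps). An exact permutation test of 3 libraries against 3 cannot go below p = 0.1, and all 6 ratio tests run, 3 here and 3 below, had an adjusted p of at least 0.6.

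miR-34a-5p, the product of the chromosome 4 locus and the member best known as a p53 target, was also close to the limit of detection. Proliferating libraries held 8, 4 and 4 counts, differentiating libraries 7, 7 and 6 and neuron libraries 33, 7 and 12. These stood for 6.06, 4.09 and 5.24 CPM, then 5.00, 6.17 and 4.27 CPM, then 8.49, 3.69 and 9.22 CPM. Replicates 1 and 3 of the neurons were the highest of the 9 libraries and replicate 2 of the neurons was the lowest, so the neurons overlapped with both progenitor populations. Its log2 ratio to miR-34c-5p did not differ detectably either (two-sided exact permutation tests, n = 3 each, p = 0.5, 0.4 and 0.7 in the same order). With no filter on low counts, where 560 miRNAs were tested, the log2 changes of miR-34a-5p were -0.04 (interval -1.09 to 1.0), 0.52 (-0.35 to 1.39) and 0.48 (-0.45 to 1.4). Those of miR-34b-5p were 0.35 (-0.8 to 1.5), 0.56 (-0.34 to 1.46) and 0.91 (-0.1 to 1.92). None of these was called, with edgeR adjusted p-values between 0.248 and 1, and at this depth changes of up to 2.64-fold in miR-34a-5p and 3.80-fold in miR-34b-5p from proliferating progenitors to neurons remain within the intervals.

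**Figure D2:**
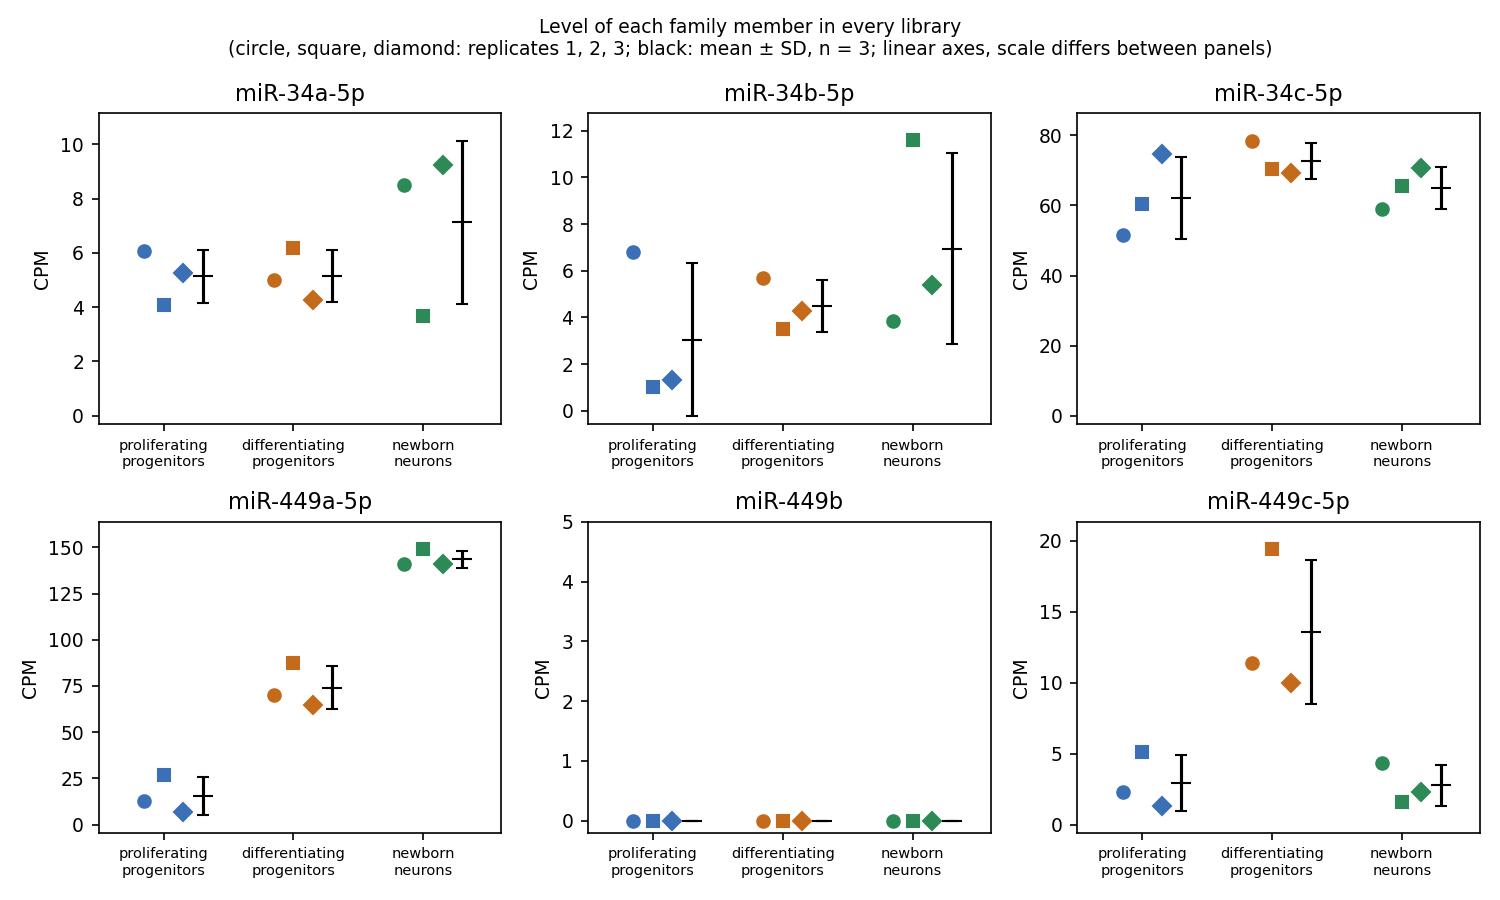
CPM of each of the 6 members in every library, by population, with the mean and SD of 3 libraries in black. miR-34c-5p stays between 51.6 and 78.5 CPM, miR-449a-5p is higher in each successive population, miR-449c-5p is highest in differentiating progenitors, miR-34a-5p and miR-34b-5p lie at or below 11.6 CPM, and miR-449b is at 0 throughout. The SD bar of miR-34b-5p in proliferating progenitors reaches below 0.

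Within the miR-449 cluster the 3 members behaved differently. miR-449b had 0 counts in all 9 libraries. Over the 14027096 counts of all libraries a count of 0 allows up to 0.214 CPM, and over the libraries of a population it allows 0.929 CPM in proliferating progenitors, 0.751 CPM in differentiating progenitors and 0.441 CPM in neurons. Mir449b, which lies between the hairpins of the other 2 members, was therefore not detectable at this depth under the name used in the table.

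miR-449a-5p was the member with the widest range. Proliferating libraries held 17, 26 and 5 counts of it, differentiating libraries 98, 99 and 91 and neuron libraries 546, 283 and 183. As CPM these were 12.9, 26.6 and 6.55, then 70.0, 87.2 and 64.8, then 141, 149 and 141. The 3 populations did not overlap. The proliferating libraries differed from each other far more, relative to their mean, than the neuron libraries (15.3 ± 10.2 CPM against 143 ± 5.05 CPM, SD, n = 3 each). The level was 4.70-fold higher in differentiating than in proliferating progenitors (log2 change 2.23, SE 0.32, 95% confidence interval 1.56 to 2.91) and a further 1.94-fold higher in neurons (log2 change 0.96, SE 0.25, interval 0.43 to 1.49). Over both steps the difference was 9.14-fold (log2 change 3.19, SE 0.31, interval 2.54 to 3.84), and on the log2 scale the first step was the larger part of it. Without replicate 2 of the proliferating progenitors, the highest of its population, the log2 change was 2.83 at the first step and 3.78 over both. Among the log2 changes of the 188 tested miRNAs, ordered from the highest, that of miR-449a-5p stood at place 4 at the first step, 38 at the second and 9 over both.

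miR-449c-5p, made from the first hairpin of the cluster, was lower in neurons than in differentiating progenitors, unlike miR-449a-5p. The counts were 3, 5 and 1 in the proliferating libraries, 16, 22 and 14 in the differentiating libraries and 17, 3 and 3 in the neuron libraries, or 2.27, 5.11 and 1.31 CPM, then 11.4, 19.4 and 9.97 CPM, then 4.37, 1.58 and 2.31 CPM. Every differentiating library was above every other library on the CPM scale, while proliferating progenitors and neurons overlapped. The 17 counts of the first neuron library came from the largest library of the series. The log2 change was 2.15 at the first step (SE 0.51, 95% confidence interval 1.08 to 3.23), place 5 of 188, directly after miR-449a-5p. It was -2.08 at the second (SE 0.42, interval -2.96 to -1.19), place 182 of 188, and 0.08 over both (SE 0.58, interval -1.16 to 1.31). These values depend on single libraries. Without replicate 2 of the proliferating progenitors the log2 change was 2.76 at the first step and 0.68 over both. Without replicate 1 of the neurons it was -2.77 at the second step and -0.60 over both.

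**Figure D3:**
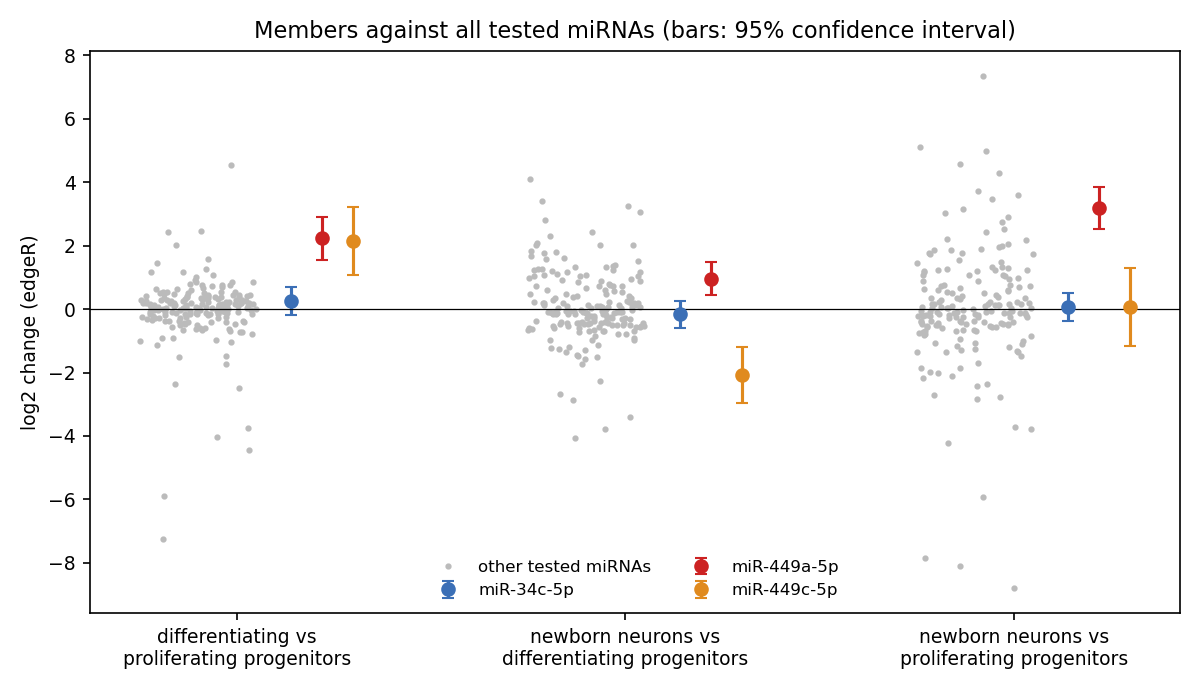
log2 change of the 3 tested members (coloured, with 95% confidence intervals) beside the other tested miRNAs (grey) in the 3 comparisons. The interval of miR-34c-5p contains 0 in all 3, miR-449a-5p lies above 0 in all 3, and miR-449c-5p lies above 0 at the first step, below 0 at the second and around 0 over both.

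Counting both miRNAs in the same library removes any effect of scaling and shows where they part. miR-449c-5p made up 15%, 16.1% and 16.7% of the summed counts of miR-449a-5p and miR-449c-5p in replicates 1 to 3 of the proliferating progenitors. It made up 14%, 18.2% and 13.3% in the differentiating progenitors. In the neurons it made up 3.02%, 1.05% and 1.61%. Both miRNAs were thus higher in differentiating progenitors in nearly the same proportion, with 5.33 counts of miR-449a-5p for each of miR-449c-5p in the summed proliferating libraries and 5.54 in the summed differentiating libraries. In the summed neuron libraries there were 44.0.

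The precision of these shares differs between populations. The summed share was 9 of 57 counts in proliferating progenitors (15.8%, exact 95% binomial interval 7.48% to 27.9%), 52 of 340 in differentiating progenitors (15.3%, 11.6% to 19.6%) and 23 of 1035 in neurons (2.22%, 1.41% to 3.32%). In single libraries of proliferating progenitors the intervals were wide, at most 0.421% to 64.1% in replicate 3 with 1 of 6 counts. The intervals of the differentiating libraries started at 7.49% or above, and those of the neuron libraries ended at 4.79% or below. Those of proliferating replicates 1 and 3 started lower, at 3.21% and 0.421%, and so met the interval of a neuron library. All of these intervals hold counting error alone and are no test between populations. As the lower share in neurons follows from changes known when the family was chosen, it is described and not tested.

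**Figure D4:**
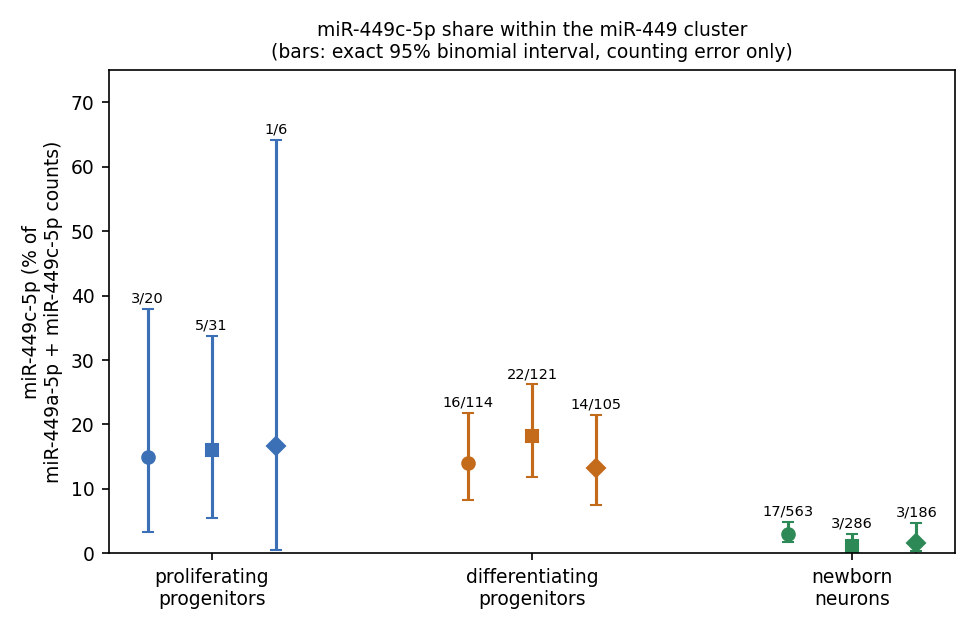
miR-449c-5p as a percentage of the summed miR-449a-5p and miR-449c-5p counts in each library, with exact 95% binomial intervals and the counts above each point. The share lies between 13.3% and 18.2% in all 6 progenitor libraries and between 1.05% and 3.02% in the 3 neuron libraries.

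The order of the members changed with the population. miR-34c-5p was the most abundant in proliferating progenitors, where each of its libraries exceeded each library of miR-449a-5p. In differentiating progenitors miR-449a-5p (74.0 ± 11.7 CPM) and miR-34c-5p (72.7 ± 5.12 CPM, SD, n = 3 each) did not differ beyond their spread. In neurons miR-449a-5p was above miR-34c-5p in every library. For each count of miR-34c-5p the proliferating libraries held 0.250, 0.441 and 0.0877 counts of miR-449a-5p, the differentiating libraries 0.891, 1.24 and 0.938 and the neuron libraries 2.38, 2.28 and 1.99. miR-449c-5p was the third in differentiating progenitors, above miR-34a-5p and miR-34b-5p in every library. In the other populations miR-34a-5p overlapped with miR-34b-5p, the next in the order, and miR-34b-5p with miR-449c-5p. By mean level over the 9 libraries miR-449a-5p stood at place 89, miR-34c-5p at 94 and miR-449c-5p at 184 of the 188 tested miRNAs. Read counts of different miRNAs also depend on how well each is ligated and amplified, so levels of different members are compared as counts and not as molecules.

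Other miRNAs with like profiles were found by the root mean square difference of log2 CPM, each miRNA centred on its own mean over the 9 libraries, among the 185 tested miRNAs outside the family. Nearest to miR-449a-5p was the neuronal miR-124-5p (difference 0.47 on the log2 scale), before miR-216b-5p (0.74) and miR-380-5p (0.76), against a median of 1.48 over the 185. Nearest to miR-34c-5p were miR-181d-5p (0.15), miR-325-5p (0.16) and miR-28a-5p (0.18), against a median of 0.46. Nearest to miR-449c-5p were let-7b-5p (0.67), miR-135a-5p (0.68) and let-7c-5p (0.74), against a median of 1.09. The last 3 had their highest mean level in the differentiating population, as miR-449c-5p did, but they were picked for a like profile, so nothing is read from this. let-7b-5p had 2833 ± 706, 4123 ± 820 and 2634 ± 281 CPM in lineage order (SD, n = 3 each). Its relative change was smaller than that of miR-449c-5p, which had 2.9 ± 1.98, 13.6 ± 5.06 and 2.75 ± 1.45 CPM (SD, n = 3 each). Between miR-449a-5p and miR-449c-5p, neighbours in the genome, the difference was 1.5 on this scale.

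miRNAs of the choroid plexus and other epithelia were examined because the multiciliated cells of the choroid plexus are a known source of this family. Of 14 on the list 8 were in the table. miR-200b-5p, miR-200c-5p, miR-141-5p and miR-429-5p were at 0 in all libraries, and miR-200a-5p had 1 count in all. The products of the opposite arms of these hairpins were not among the 8. These low counts therefore do not show whether the hairpins were expressed, and the presence of epithelial cells was not tested. miR-205-5p had 33 counts and miR-211-5p 28 over the 9 libraries. The summed level of the list ran from 3.93 to 84.8 CPM in proliferating progenitors, from 8.57 to 50.2 CPM in differentiating progenitors and from 31.5 to 69.1 CPM in neurons, with miR-204-5p, an abundant miRNA of the choroid plexus, the highest of the list in every library.

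miR-204-5p varied strongly between libraries of a population. It stood at 26.5, 78.7 and 2.62 CPM in proliferating progenitors, 7.14, 44.9 and 13.5 CPM in differentiating progenitors and 48.4, 66.5 and 25.4 CPM in neurons. Replicate 2 was the highest of its population for both miR-204-5p and miR-449a-5p in all 3 populations, and replicate 3 of the proliferating progenitors the lowest of all 9 libraries for both. Between populations the levels of miR-204-5p overlapped, and no comparison was called (log2 changes -0.80, 1.16 and 0.37, edgeR adjusted p-values 0.482, 0.159 and 0.64). The library with the most miR-204-5p, replicate 2 of the proliferating progenitors, had 26.6 CPM of miR-449a-5p. That is below all differentiating progenitor and neuron libraries. The part of choroid plexus cells in the level of miR-449a-5p was not tested.

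**Figure D5:**
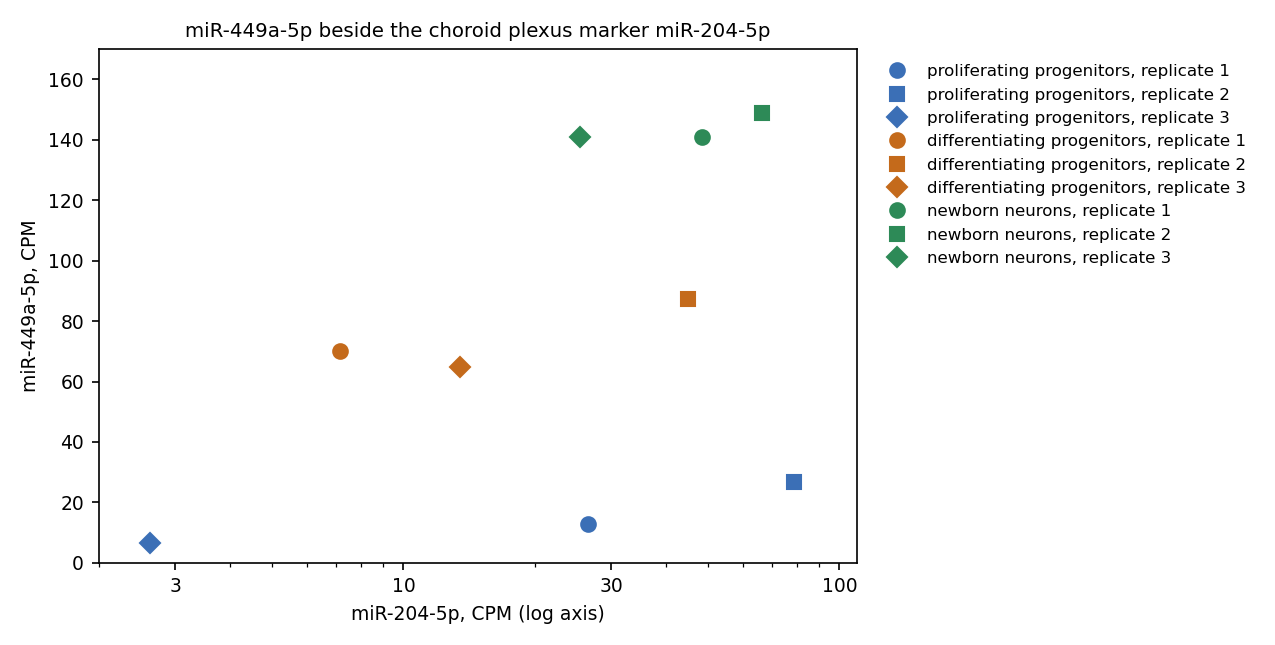
CPM of miR-449a-5p against CPM of miR-204-5p (log axis) in the 9 libraries, coloured by population. Within each population replicate 2 is highest on both axes, while the populations separate on the miR-449a-5p axis alone, at 6.55 to 26.6, 64.8 to 87.2 and 141 to 149 CPM.

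A further list held 16 other miRNAs reported as activated by p53. Of these 11 were in the table, 3 of them at 0, and 5 were tested. The 3 at 0 were miR-107-5p, miR-200c-5p and miR-141-5p, whose 3p arms were on the list but not in the table. From proliferating to differentiating progenitors none of the 5 was called higher and 1 lower, at the second step again none higher and 1 lower, and over both steps 1 higher and 2 lower. Among all tested miRNAs 16.0%, 46.3% and 56.4% were called in these comparisons, so that 3 of 5 over both steps is close to the share of all. Their median log2 changes were -0.13, -0.21 and -0.38, beside 0.08, -0.06 and -0.05 for all tested miRNAs. miR-143-3p, which is also a miRNA of mural cells and stands on the mural list, fell by 3.75 at the first step (log2, SE 0.28, edgeR adjusted p = 1.49e-08). miR-15a-5p, which shares its seed with miR-16 and acts on cell cycle genes, fell by 0.73 at the second step (log2, SE 0.21, edgeR adjusted p = 0.00744). miR-194-5p rose over both steps by 0.60 (log2, SE 0.24, edgeR adjusted p = 0.0432). miR-192-5p, made from the same precursor transcript as a copy of miR-194, had log2 changes of -0.13, -0.07 and -0.20 and was not called.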

How the data were processed

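Small RNA reads of 9 libraries, 3 per sorted population, were counted per mature miRNA by the authors. The deposited table holds whole-number read counts, not normalised or pooled, as its values show. The submitters' processing notes list bcl2fastq 1.8.2, DESeq2 and the build mm10 without a role. The aligner, the counting rules and the miRNA database release are not given in the sources used here. Replicate pairs of each population differed by far more than sampling noise. The chi-square per degree of freedom ran from 8.9 (proliferating replicates 1 and 2) to 122 (neuron replicates 2 and 3). No library was therefore taken as a repeat reading of another, and all 9 libraries were kept.

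From 1433 rows, 222 predicted rows were left out, 1 row per mature name was kept, and names of at least 50 counts that differed by at most 2% were merged, which left 1052 miRNAs. edgeR 4.0.16 in R 4.3.3 (filterByExpr, TMM, glmQLFit, glmQLFTest) was fitted once to all 9 libraries without covariates. The 188 miRNAs tested held 99.97% of the counts, and p-values were Benjamini-Hochberg adjusted over them with a threshold of 0.05. The fit was tested on simulated data. Exact permutation tests and exact binomial (Clopper-Pearson) 95% intervals used SciPy 1.17.1. The 5 3p arms of the member precursors that were looked for were not found under their names, so they could not be analysed here.

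Alternatives covered scaling, filter, tool (DESeq2 1.42.0), rows, a replicate block and single libraries. The text names the 6 members, for each tested member the 3 nearest profiles, and lists of p53-activated miRNAs and cell type markers. The members and lists were chosen with earlier results of these data known.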

Additional observations from a re-analysis of the deposited data

How the results depend on the processing

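miR-34c-5p was called in none of 20 alternatives in any comparison, with log2 changes of 0.11 to 0.39, -0.20 to 0.01 and -0.06 to 0.26. Its sign at the second step changed with total counts without miR-9-5p (0.01) and its sign over both steps without replicate 1 of the proliferating progenitors (-0.06). The log2 changes of miR-449a-5p, given as a description, ran from 1.94 to 2.83, from 0.94 to 1.14 and from 2.90 to 3.78, and those of miR-449c-5p from 1.85 to 2.76, from -2.77 to -1.73 and from -0.60 to 0.68. The members called at the first step fell from 2 to 1 when the predicted rows were included, where 19 miRNAs were called in place of 30, and when 1 library was left out at a time they ran from 1 to 2, and all called miRNAs from 18 to 37. Leaving out proliferating replicate 1 gave the lowest of these. In both cases the member lost was miR-449c-5p (log2 change 2.14 with predicted rows, 1.94 without that library). At the second step the predicted rows left 1 member called, without miR-449a-5p (log2 change 1.05). The cause was not tested. Nothing is read from calls of miR-449a-5p and miR-449c-5p under any setting, since the family was chosen by their differences. All calls at the second step ran from 74 to 92, and over both steps from 99 to 114, when 1 library was left out. Total counts moved the median of all miRNAs by 0.06, 0.12 and 0.18 in the 3 comparisons, and the share of calls that were higher from 50%, 51.7% and 52.8% to 56.7%, 61.3% and 61.2%. Total counts without miR-9-5p moved the median by -0.08, 0.18 and 0.10, and that share to 41.7%, 65.3% and 56.6%. That scaling raises every CPM, since its denominator is smaller. Merging no near-identical names was added after the data were seen and changed no member's call.

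With the replicate block 33 miRNAs were called at the first step, 88 at the second and 108 over both, and the same members were called as without it. Same-numbered libraries did not all deviate together (correlations -0.07 to 0.25, other pairs -0.26 to 0.12), so the numbers were not taken as pairs. Same-numbered pairs with a differentiating library were all positive (0.02 to 0.25), and those of proliferating and neuron libraries all slightly negative (-0.07 to -0.06). Whether same-numbered libraries shared a preparation was not tested. Low counts limit miR-34a-5p, miR-34b-5p and, outside differentiating progenitors, miR-449c-5p.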
